A study of Mus musculus with 4 samples.

Results

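Among the splenic germinal center (GC) B cells profiled here by droplet single-cell RNA sequencing, 948 barcodes combined little RNA with a high share of Macf1, Cd22 and Arhgap45 transcripts. They were chosen from the measured values: a barcode had 100 to 5500 genes detected, under 10% mitochondrial counts, under 3000 unique molecular identifiers (UMIs, counted RNA molecules), Jchain under 50 and the sum of Macf1, Cd22 and Arhgap45 at 20 or more, each per 10000 UMIs (CP10K). The 948 members came from 29473 barcodes, of which 28550 passed the filter on genes and mitochondrial counts. There were 107 members in the CD45.1 library and 841 in the CD45.2 library. In the study, MD4 B cells, whose transgenic antigen receptor binds hen egg lysozyme (HEL), were given to CD45.1+ wild-type recipients, which were then immunized with HEL on sheep red blood cells. Every recipient received CD45.1+ Dock8 wt/wt MD4 cells together with CD45.2+ MD4 cells bearing BCL2.Tg, a transgene for the survival protein BCL2. The CD45.2+ cells were Dock8 wt/wt in 3 mice and Dock8 cpm/cpm, which lack DOCK8, in the other 3. Spleens were taken on day 8, HEL+ CD95+ cells of the 6 mice were pooled after hashtag labelling, and the CD45.1+ and CD45.2+ sorts each gave 1 mRNA and 1 hashtag library. The methods describe age-matched mice of both sexes and sorted whole cells, whereas the deposited protocol gives the loading in nuclei. BCL2.Tg, CD45 allele, sort and library differ together between the CD45.2 and CD45.1 cells, so they cannot be told apart in any comparison of the 2 libraries.

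GC B cells cycle between a dark zone, where they divide and mutate their antigen receptor, and a light zone (LZ), where they take up antigen and compete for T cell help. CD22 and Siglec-G, the product of Siglecg, are sialic acid-binding lectins on B cells that recruit the phosphatase SHP-1, the product of Ptpn6, and restrain signalling by the B cell receptor. Macf1 encodes a very large protein that links actin and microtubules, and Arhgap45 a GTPase-activating protein. Gm42418 is an annotated noncoding gene in a ribosomal RNA repeat, whose counts are commonly read as a sign of ribosomal RNA carried into the library. A barcode with few UMIs can be a small or resting cell, a damaged cell, a nucleus or a droplet with free RNA, and in counts of this kind a lower number of molecules per cell and a poorer capture cannot be told apart.

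The mouse of origin of a member could be read only from its hashtag, a barcoded antibody, so the barcodes are shown with the mouse they stand for. Capitals mark the whole barcode, 5′ to 3′, since every base is read.
B0301, mouse 1 labelled wt/wt: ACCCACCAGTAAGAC
B0302, mouse 2 labelled wt/wt: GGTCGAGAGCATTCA
B0303, mouse 3 labelled wt/wt: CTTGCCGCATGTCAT
B0304, mouse 1 labelled cpm/cpm: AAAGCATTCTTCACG
B0305, mouse 2 labelled cpm/cpm: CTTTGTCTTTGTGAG
B0306, mouse 3 labelled cpm/cpm: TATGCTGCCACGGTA

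On the GRCm38 assembly with GENCODE M21 models, Macf1 (ENSMUSG00000028649) spans chromosome 4 from 123349633 to 123684360 on the minus strand and has 31402 bp of exons. Cd22 (ENSMUSG00000030577) lies on chromosome 7 from 30865402 to 30880342 on the minus strand with 5042 bp of exons. Siglecg (ENSMUSG00000030468) is on the plus strand of the same chromosome from 43408204 to 43418358 with 4806 bp. Arhgap45 (ENSMUSG00000035697) occupies chromosome 10 from 80016653 to 80031472 on the plus strand with 4478 bp. Gm42418 (ENSMUSG00000098178) is a lincRNA model of 1831 bp on chromosome 17 from 39846958 to 39848788 on the plus strand.

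The labels were checked before the mice were compared. A note in the study's supplement describes the wt/wt cells as male and the cpm/cpm cells as female. In the CD45.2 library, singlets of the 3 mice labelled wt/wt held Xist, the RNA of the inactive X chromosome, at 1288, 1429 and 1203 CPM, the gene's UMIs scaled to a common total, and singlets of the 3 mice labelled cpm/cpm held it at 281, 405.9 and 312.7 CPM. The Y-linked Ddx3y was at 1.97, 2.16 and 2.33 CPM in the first group and at 67.5, 67.2 and 59.97 CPM in the second. The sexes were therefore the reverse of that note. The CD45.2+ singlets numbered 2007, 2607 and 1672 where the label was wt/wt and 57, 44 and 101 where it was cpm/cpm, and the mice are called by their label throughout. Dock8 transcripts do not check the labels, being at 98.2, 99.1 and 83.5 CPM in CD45.2+ singlets of the first group and at 105.4, 99.3 and 95.7 CPM in those of the second. In the CD45.1 library all 6 mice had Xist between 1038 and 1514 CPM. The libraries shared 38 barcodes and no barcode was a member in both.

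Members had few UMIs by the rule, with a median of 1998 in the CD45.1 library and 1238 in the CD45.2 library. They held 204964 and 1197608 UMIs of the 37112513 and 193575523 in all kept barcodes. The 546 and 631 other barcodes under 3000 UMIs with Jchain under 50 CP10K had medians of 2412 and 2003. Members were 16.4% of the low barcodes in the CD45.1 library (107 of 653, exact binomial 95% interval 13.6% to 19.5%) and 57.1% in the CD45.2 library (841 of 1472, 54.6% to 59.7%). Intervals here and below cover counting error only. The share was highest where barcodes were shallowest: in the CD45.2 library it was 72.0% at 500 to 1000 UMIs and 30.2% at 2500 to 3000, and in the CD45.1 library 33.3% and 11.96%. A fixed line of 20 CP10K asks for fewer UMIs at low depth, so this trend follows in part from the rule. Members carried a median of 3 UMIs of the 3 genes at 500 to 1000 UMIs and 7 at 2500 to 3000, in either library.

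**Figure D1:**
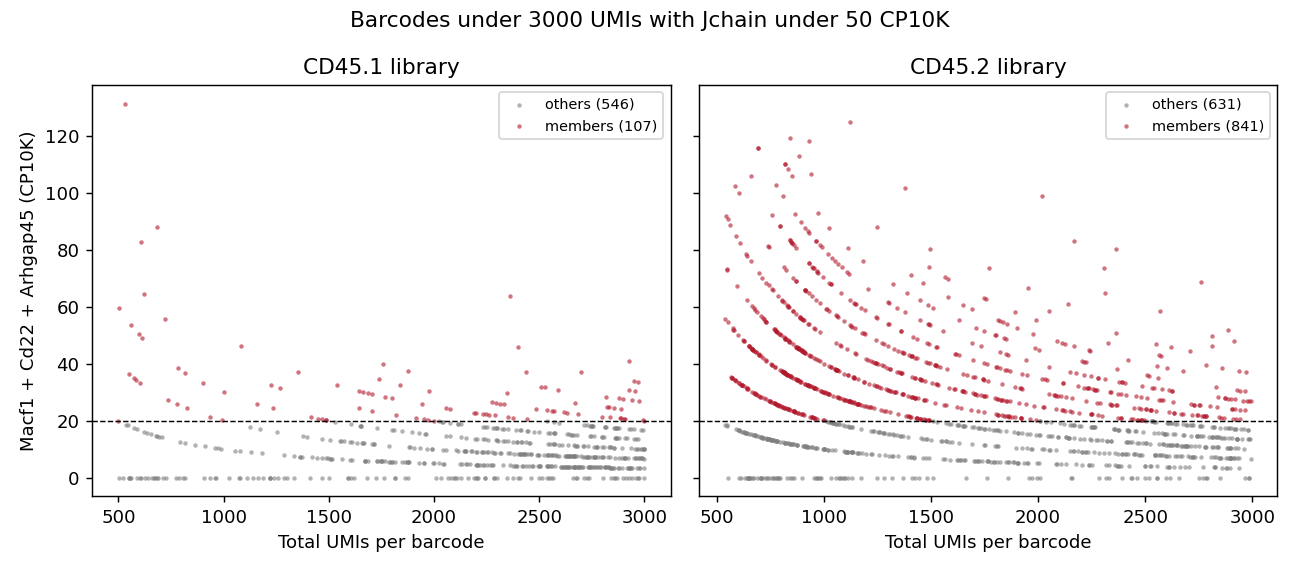
Total UMIs (x axis) against the summed CP10K of Macf1, Cd22 and Arhgap45 (y axis) for the barcodes under 3000 UMIs with low Jchain in each library, with members in red, other barcodes in grey and the line at 20 CP10K. Barcodes lie on curves of equal UMI number and no gap separates the 948 members from the rest.

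The rule divided a continuous range. Directly below the line, from 18 to 20 CP10K, lay 24 barcodes of the CD45.1 library and 65 of the CD45.2 library, and directly above it, from 20 to 22 CP10K, lay 24 and 66 members. The highest sum left out was 19.8 and 19.98 CP10K and the lowest taken in was 20 and 20.04 in the 2 libraries. At the depth limit, 22 and 50 members had 2700 to 3000 UMIs, and 12 and 46 barcodes with a high sum lay in an equal span directly above 3000. Jchain bounded the CD45.2 members more than the CD45.1 members, with 108 and 2 members at 40 to 50 CP10K of Jchain, and 208 and 2 barcodes left out by Jchain alone. The median member carried 5 UMIs of the 3 genes in either library, 1 member carried a single UMI, and members with a UMI of all 3 genes were 44 of 107 and 432 of 841. Cd22 was present in 98 and 712 members, Macf1 in 87 and 675, and Arhgap45 in 63 and 661.

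To give the classes a common depth, each barcode was thinned to 1000 UMIs, which left out 22 of 107 and 314 of 841 members. Of the members that remained, 76.5% and 89.6% still reached the line, against 18.3% and 30.6% of the other low barcodes and 24.1% and 28.2% of LZ cells. The gap between members and other barcodes follows from the rule, which put members at 100% and the others at 0% before thinning, and LZ cells stood at 5.35% and 7.20% unthinned, so that thinning alone raised their share. LZ cells here are the 934 and 3623 barcodes of 3000 UMIs or more that passed a gate on 10 LZ genes, with medians of 4106 and 5487 UMIs. In T cell-gated barcodes, which should lack Cd22, a UMI of Cd22 was found in 0.0% and 13.8% at 1000 UMIs, and in LZ cells in 33.7% and 33.6%, while the 70.6% and 73.8% of members with one follow from the rule. The unthinned medians of T cell-gated barcodes were 2841 and 3163 UMIs. Jchain gave a different picture. A UMI of it was found in 22.7% and 67.6% of T cell-gated barcodes, 36.5% and 84.1% of members, 40.2% and 84.5% of the other low barcodes and 37.4% and 57.7% of LZ cells, so that the share in members did not exceed the share in other barcodes of like depth. Jchain under 50 CP10K was asked of each of these classes, so the comparison holds only below that bound.

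The 5 marker genes were described in every mouse with at least 5 members, which gave 6 sums over CD45.1 members and 3 over CD45.2 members. All 3 of the CD45.2 sums came from mice labelled wt/wt. Macf1 in members had a lowest, median and highest level of 632, 1076 and 1523 CPM, against 232, 275 and 364 CPM in LZ cells and 159, 237 and 382 CPM in the other low barcodes. Cd22 ran at 761, 1305 and 1530 CPM in members, 346, 384 and 422 in LZ cells and 312, 392 and 442 in the others. For both genes the members lay above both other classes in all 9 sums, as the rule requires on average. Arhgap45 spread more widely, at 169, 624 and 1235 CPM in members against 159, 200 and 269 CPM in LZ cells, and its CD45.1 and CD45.2 members did not overlap.

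Siglecg and Gm42418 took no part in the rule. Siglecg was at 481.8, 722 and 1162 CPM in members, at 356, 427 and 481.5 CPM in LZ cells and at 318, 447 and 564 CPM in the other low barcodes, higher in members in 9 of 9 sums against either class of the same mouse. These sums hold only members with a hashtag, 6.37% of the 314 CD45.2 members of 500 to 1000 UMIs, and in all barcodes of that depth Siglecg was at 1047 CPM in members and 1035 CPM in the others. Gm42418 was at 3713, 4864 and 9752 CPM in members and 1657, 1838 and 2070 CPM in LZ cells, higher in 9 of 9. Against the other low barcodes, which reached 14300 CPM, it was higher in 7 of 9. In all barcodes of a library together, Gm42418 in members stood at 5484 CPM (CD45.1, exact Poisson 95% interval 5168 to 5814) and 7160 CPM (CD45.2, 7009 to 7313).

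**Figure D2:**
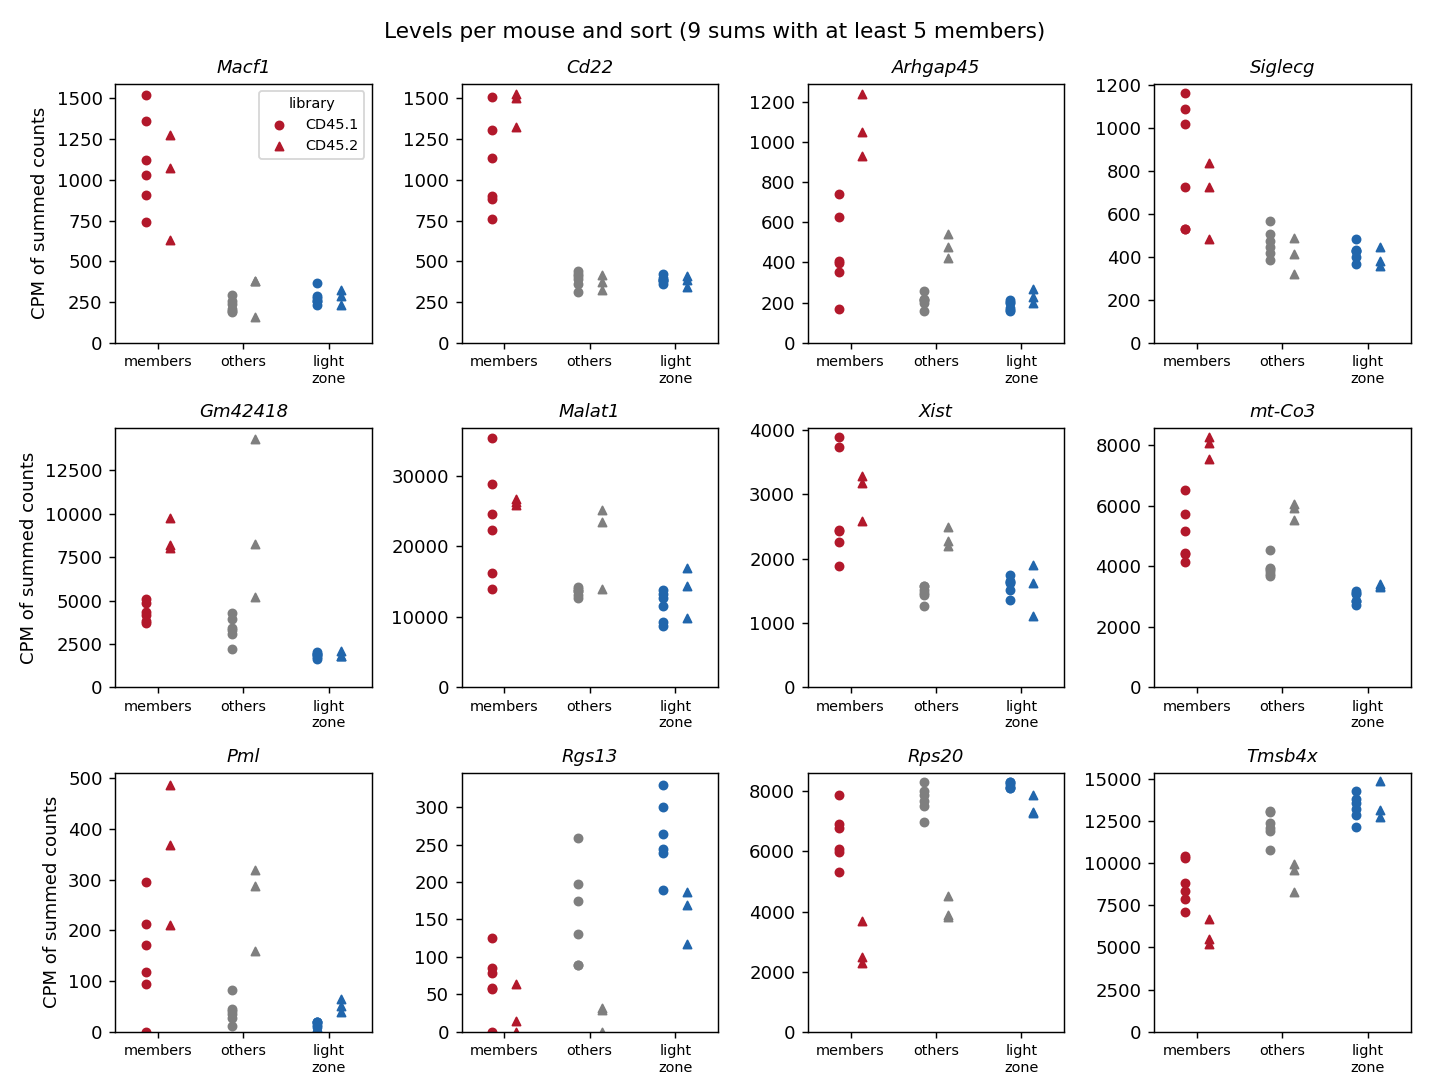
CPM of summed counts (y axis, from 0) for 12 genes in members, other barcodes under 3000 UMIs and LZ cells (x axis); each point is 1 mouse in 1 sort, circles for CD45.1 and triangles for CD45.2. Members lie above LZ cells in all 9 sums for Siglecg, Gm42418, Malat1, Xist and mt-Co3, and below them in all 9 for Rgs13, Rps20 and Tmsb4x.

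Both unused markers went with other RNAs. Malat1, an abundant RNA retained in the nucleus, was at 14000, 25950 and 35460 CPM in members (lowest, median, highest of the 9 sums), 8682, 12740 and 16970 CPM in LZ cells and 12660, 13900 and 25200 CPM in other low barcodes. Xist, also nuclear, was at 1888, 2590 and 3892 CPM against 1115, 1621 and 1902 CPM in LZ cells, and both RNAs were higher in members in 9 of 9 sums against either class. In all CD45.2 barcodes of 500 to 1000 UMIs, most of them without a hashtag, Malat1 was lower in members, at 16240 against 18700 CPM. The mitochondrially encoded mt-Co3 was at 4146, 5722 and 8286 CPM in members and 2722, 3110 and 3426 CPM in LZ cells, again 9 of 9. Tmsb4x, which encodes an actin-sequestering peptide, went the other way, with 5187, 7846 and 10440 CPM in members and 12160, 13200 and 14880 CPM in LZ cells. Rps20, a protein of the small ribosomal subunit, was lower in members in 9 of 9 sums, at 2284, 5974 and 7868 CPM against 7292, 8112 and 8321 CPM.

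Members were next set against the other low barcodes. Of 3207 genes with at least 50 CPM in either class in both libraries, 14 (0.437%) were at least 2-fold higher in members in both libraries and 4 (0.125%) at least 2-fold lower, on CPM plus a pseudocount of 10. With every barcode thinned to 1000 UMIs, 17 genes were higher, 8 of them among the 14, and 6 lower, 3 of them among the 4. These contrasts come from the selection itself and carry no test. The rule genes Macf1 and Cd22 led the first group by the smaller of their folds, followed by Fgd2 and the rule gene Arhgap45. On the log2 scale Macf1 was higher by 2.32 (CD45.1) and 2.005 (CD45.2), Cd22 by 1.67 and 1.94, and Arhgap45 by 1.22 and 1.57. Of the genes outside the rule, Fgd2, an exchange factor for the small GTPase CDC42, came first, higher by 1.24 in either library. Fgd2 was at 117 CPM in CD45.1 members against 43.7 CPM and at 395 CPM in CD45.2 members against 162 CPM. It was higher in members in 6 of the 9 sums per mouse. Ackr2, a decoy receptor for chemokines, was higher by 1.46 and 1.16, Pml, the scaffold of PML nuclear bodies, by 1.98 and 1.07, Il10ra, a chain of the IL-10 receptor, by 1.13 and 1.06, and Mndal, a member of the interferon-inducible p200 family, by 1.16 and 1.09. The noncoding genes Gm26917 (1.64 and 1.15) and Gm15987 (1.30 and 1.09) completed the 10 with the largest smaller fold. Siglecg (0.83 and 0.60) and Gm42418 (0.70 and 0.68) did not reach 2-fold here.

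Of the 4 genes that were lower, 3 are genes of T or natural killer cells. Ccl5, a chemokine of cytotoxic lymphocytes, had 0 and 5 UMIs in members (0.0 and 4.17 CPM) against 67.7 and 453 CPM in the other low barcodes. Trbc2, the T cell receptor β constant region, was at 0.0 and 33.4 CPM against 88.3 and 160 CPM, and Cd3g, a CD3 chain, at 4.88 and 31.7 against 61.0 and 103.6 CPM. The fourth, AW112010, an interferon-induced transcript, was at 34.1 and 23.4 against 108 and 231 CPM. T cell-gated barcodes were 0 of 107 and 14 of 841 members, and 25 of 546 and 50 of 631 other barcodes. Without them, 10 genes were higher and 0 lower. Summed over the T cell list of 10 genes, members held 151 and 218 CPM and the other barcodes 472 and 761 CPM, with Lck the most abundant in CD45.1 and CD45.2 members (117 and 59.3 CPM) and Cd3e at 0.0 and 14.2 CPM.

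**Figure D3:**
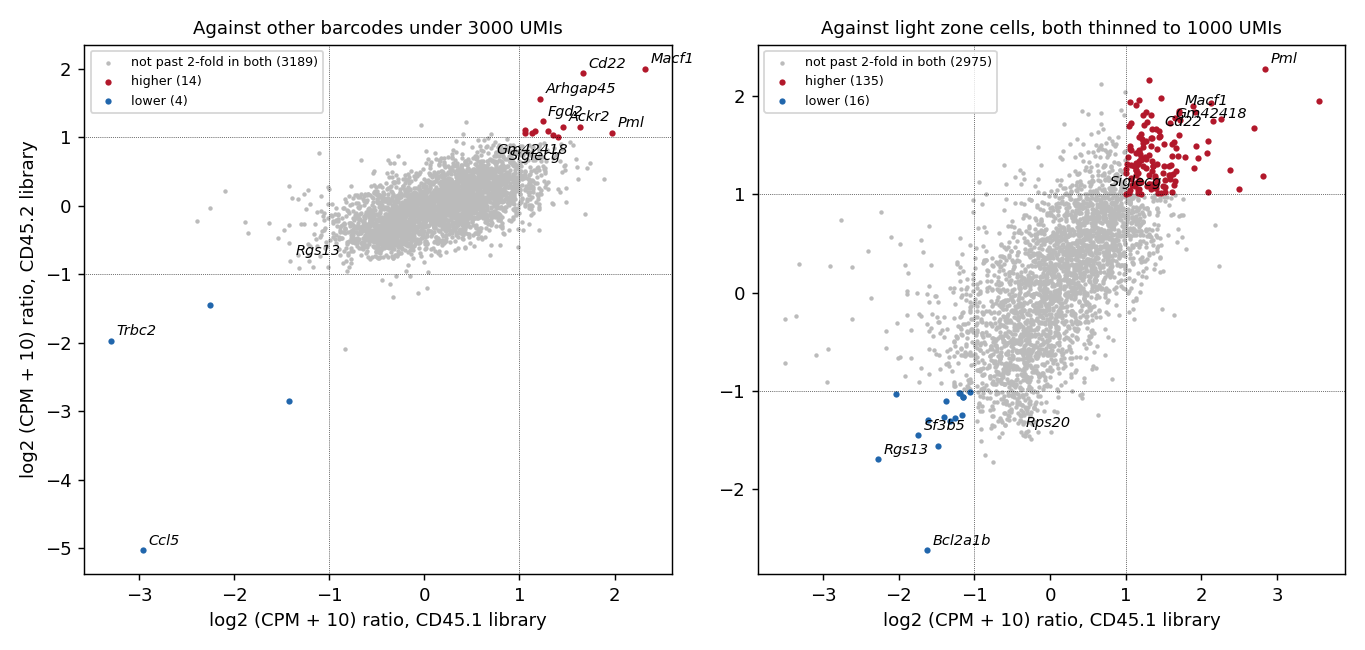
Log2 ratio of CPM plus 10, members over other low barcodes (left) and over LZ cells with both thinned to 1000 UMIs (right), in the CD45.1 library (x axis) and the CD45.2 library (y axis); each point is a gene. Red points are past 2-fold higher in both libraries (14 and 135 genes) and blue points past 2-fold lower (4 and 16 genes).

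The contrast with LZ cells, both at 1000 UMIs, was wider. Of 3126 genes, 135 (4.32%) were at least 2-fold higher in members in both libraries and 16 (0.512%) at least 2-fold lower. Pml led, with 176 CPM in CD45.1 members against 16.1 CPM in LZ cells and 317 against 57.4 CPM in the CD45.2 library. The adhesion receptor gene Adgre5 (CD97) was higher by 2.12 and 1.93 on the log2 scale, Ifi203, another p200 family gene, by 2.15 and 1.75, and Cmah, an enzyme of sialic acid synthesis that makes the ligand form preferred by mouse CD22, by 1.91 and 1.83. Psap, the precursor of lysosomal saposins, was higher by 1.72 and 1.76, Ackr2 by 1.89 and 1.90 and Fry, a large microtubule-associated protein, by 2.26 and 1.76. Siglecg was higher by 0.73 and 1.03 and Gm42418 by 1.58 and 1.72. At the low end stood Bcl2a1b, an antiapoptotic BCL2 relative with near-identical copies in the genome, at 94.1 against 312 CPM (CD45.1, log2 -1.63) and 30.4 against 238 CPM (CD45.2, log2 -2.62). Mrpl17 and Mrps21, of the mitochondrial ribosome, Sf3b5, a small splicing factor, Nop10, of small nucleolar ribonucleoproteins, Cox7a2 and Ndufa12, of the respiratory chain, Dbi and Ddt had log2 ratios between -1.74 and -1.10.

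Which genes passed depended on the settings. Of the 135 higher genes, 62 also passed at 1500 UMIs, where 117 did, and of the 16 lower genes 2 did, where 11 passed. Without hashtag doublets, 61 of the 135 and 5 of the 16 passed. A pseudocount of 50 CPM kept 29 and 7.

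Several genes in this contrast were themselves part of the LZ gate, which bears on their ratios to LZ cells. The gate acts on sums, so that no single gene of it had to differ. The gate required more of 10 LZ genes, Rgs13 and Mef2b among them, than of 5 early genes, S1pr1 among them, and little of 7 cycling genes, among them Top2a. These genes were therefore also set against all kept barcodes of 3000 UMIs or more with low Jchain, 3019 and 17613 in the 2 libraries. The early genes went in different directions. S1pr1, a receptor for egress from lymphoid tissue, was at 112 and 291 CPM against 77.5 and 124 CPM, and Gimap4 at 263.5 and 398 against 236 and 234 CPM. Plac8 was lower in members, at 234 and 308 against 966.5 and 665.5 CPM, and Klf2, a factor that drives S1pr1, was at 273 and 547 against 408 and 436 CPM. Rgs13, a regulator of G protein signalling typical of GC B cells, was at 58.5 and 57.6 CPM against 117 and 98.3 CPM. Cd83 and Fcer2a did not go with Rgs13, at 629 and 590 CPM in CD45.1 members and 296 and 559 CPM in CD45.2 members against 247 and 236 CPM, and 214 and 267 CPM. In unthinned LZ cells Cd83 was at 569 and 477 CPM and Fcer2a at 538 and 618 CPM, above the CD45.2 members. Against all kept barcodes of 3000 UMIs or more, which include cycling cells, Cd86, Stap1, Rhoh and Icam1 were also higher in both libraries. Basp1 (log2 0.40 and -0.49) and Mef2b (0.04 and -0.24) were lower in CD45.2 members only, and Tnfrsf13c was at 0.55 and -0.0003. Of the genes outside the gate, Ighd, the heavy chain of IgD on naive B cells, was at 507 and 918 CPM in members against 172 and 366.5 CPM. The memory-associated Cd38 was at 254 and 299 CPM against 135 and 142 CPM, and Tle3, a corepressor, at 117 and 96.0 against 34.8 and 40.7 CPM. Ccr6, a chemokine receptor of memory precursors, was at 122 and 185 against 86.8 and 101 CPM, Zeb2 at 156 and 218 against 98.3 and 111 CPM and Bhlhe41 at 82.9 and 87.7 against 58.3 and 58.2 CPM, with log2 ratios of 0.45 and 0.81, 0.62 and 0.91, and 0.45 and 0.52.

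The groups of genes with related roles were described by their counts and medians, beside the median of all genes tested, which was 0.19 (CD45.1) and 0.01 (CD45.2) on the log2 scale against the other low barcodes and 0.15 and 0.22 against LZ cells. The shares of all genes past 2-fold, 0.437% higher and 0.125% lower against the other low barcodes and 4.32% and 0.512% against LZ cells, stand beside every count of a list below, and with lists this short a count of 0 is no result. Markers common to B cells were close to it. Of 9 such genes none passed 2-fold in either contrast, with medians of 0.45 and 0.27 against the other low barcodes and 0.41 and 0.28 against LZ cells. Cd79a, a signalling chain of the B cell receptor, was at 2815 and 2713 CPM in members and 2551 and 2504 CPM in the others, and Ms4a1, CD20, at 2683 and 2318 against 2002 and 1924 CPM. MHC class II genes were level as well, with 0 of 11 past 2-fold and medians of 0.05 and -0.07 against LZ cells. Of 14 genes for inhibitory receptors and their phosphatases, 8 were high enough to count and 2, Cd22 and Pecam1, were past 2-fold higher against LZ cells (medians 0.68 and 0.74). Cd22 helped to choose the members, so that of the 2 only Pecam1 lay outside the rule. Among the genes of this list Ptpn6, which acts below CD22, was at 464 and 544 CPM in members and 545 and 453 CPM in the others. Cd72 was at 395 and 530 against 342 and 336 CPM. Of the receptor complex and its proximal kinases, 1 of 18 genes, Ighd, was past 2-fold against LZ cells (medians 0.41 and 0.56).

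Of 17 counted cytoskeletal linkers and very large scaffold proteins, only Macf1, a gene of the rule, was past 2-fold in either contrast (medians against LZ cells 0.66 and 0.86). Its relatives in size Akap13 and Myh9 were at 512 and 507 CPM in CD45.1 members and 490 and 393 CPM in CD45.2 members. In the other barcodes these 2 genes were at 310 and 290 CPM, and 453 and 377.5 CPM.

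Splicing and RNA-binding genes were 20 of 20 counted, with Clk1, a kinase of splicing factors, Ccnl1 and Luc7l2 past 2-fold higher against LZ cells (medians 0.66 and 0.98). Clk1 was at 600 and 873 CPM in members, 244 and 589 CPM in the other low barcodes. Of 7 counted RNAs of the list of nuclear-retained and ribosomal-repeat genes, Gm42418 and Kcnq1ot1 were past 2-fold against LZ cells and Gm26917 against the other low barcodes, and the list summed to 39000 and 36380 CPM in members against 21260 and 28230 CPM there. Of 10 counted memory precursor genes, Bhlhe41, Ccr6, Cd38, Tle3 and Zeb2 were past 2-fold higher against LZ cells, beside 4.32% of all genes (medians 1.18 and 0.93), and Ccr6 was against the other low barcodes. Of these 5, Tle3 alone was past 2-fold in both libraries against all kept barcodes of 3000 UMIs or more, as its values above show. Recent T cell help (0 of 7 counted genes), immediate early (0 of 7) and heat shock genes (0 of 5) had none past 2-fold against LZ cells, as for most genes, with medians of -0.22 and -0.05, -0.08 and -0.09, and -0.34 and -0.54. Cycling genes differed between the libraries. Mki67 was at 112 CPM in CD45.1 members and 251 CPM in CD45.2 members, against 125 and 350.5 CPM in the other low barcodes, where the list's medians were -1.04 and -0.41.

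The study names marker genes of a cluster it calls LZtoPrePC_Memory. The 20 genes of that list were chosen on these libraries and include the 5 markers here, so their direction is not independent evidence. Of the 19 counted, 5 were past 2-fold higher in members against the other low barcodes (Arhgap45, Cd22, Fgd2, Gm26917 and Macf1) and 7 against LZ cells (Cd22, Fgd2, Gm42418, H2-Q6, Macf1, Map4k2 and mt-Atp8), with 0 lower. Pld4, an exonuclease of endolysosomes, was at 254 and 608 CPM in members against 156 and 300 CPM. Atp2a3, a calcium pump of the endoplasmic reticulum, was at 259 and 584 against 199 and 422 CPM. Of 3 more genes named for that cluster, Ly6e, a membrane protein, was at 1512 and 2154 against 1082 and 1577 CPM, Xbp1, a factor of plasma cell formation, at 137 and 287 against 147 and 270 CPM, and Irf4 at 14.6 and 45.09 against 10.7 and 69.1 CPM.

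Of the markers of other cell types, some were near 0 in members. The 5 natural killer cell genes summed to 0.0 and 5.84 CPM, with Ncr1 and Klrb1c at 0 UMIs, and the 4 platelet genes to 0.0 and 1.67 CPM. The 5 genes of follicular dendritic or stromal cells had 0 UMIs. The 6 erythroid genes summed to 53.7 and 42.6 CPM, all of it Hbb-bt in CD45.1 members. The 10 myeloid genes summed to 229 and 291 CPM, led by Cst3, which B cells also express (195 and 220 CPM), with Tyrobp at 9.76 and 18.4 CPM. The 10 plasma cell genes summed to 2078 and 4290 CPM against 2101 and 4148 CPM in the other low barcodes, and 81.2% and 96.4% of members at 1000 UMIs had a UMI of them, against 82.1% and 97.1% of the others. Jchain was the most abundant in CD45.2 members (2105 CPM, 586 CPM in CD45.1 members), bounded above by the rule.

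The composition of the RNA moved with membership. Ribosomal protein genes, a list made after their values were seen, held 21.9% and 13.0% of the UMIs of members, 28.8% and 17.8% in the other low barcodes and 29.7% and 28.2% in LZ cells. Mitochondrially encoded RNAs held a median of 3.83% and 5.19% in members, 2.80% and 3.09% in the others and 2.25% and 2.19% in LZ cells. In CD45.1 members of 500 to 1000 UMIs the ribosomal share was 8.16%, against 23.8% in those of 2000 to 3000 UMIs, and in CD45.2 members it was 11.3% and 16.2%. At 500 to 1000 UMIs the other barcodes stood at 22.02% and 11.8%, the latter close to the CD45.2 members. At 2000 to 3000 UMIs, members had a lower ribosomal share than the other barcodes of that depth (28.8% and 20.3%) and a higher median mitochondrial share (3.59% against 2.81%, and 4.08% against 2.34%). The summed level of nuclear-encoded respiratory chain genes was 14310 and 10960 CPM in members against 19330 and 15110 CPM. Their part in the gene differences above was not tested.

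Transcript length went with the ratios across genes. The 135 genes higher than in LZ cells had a median exonic length of 6720 bp and the 16 lower genes 1495.5 bp, against 4601 bp for all genes tested. The 14 genes higher than in the other low barcodes did not share this, with a median of 4492.5 bp against 4706 bp for all. Across 3126 genes, Spearman's correlation of exonic length and log2 ratio to LZ cells was 0.44 (CD45.1) and 0.56 (CD45.2), and 0.43 and 0.54 without ribosomal protein genes. Against the other low barcodes it was 0.55 and 0.47 across 3207 genes. These are descriptions across genes of the same libraries, and genes are not independent replicates. In the longest bin, over 8000 bp, the median log2 ratio to LZ cells was 0.55 and 0.64, and at 500 to 1000 bp it was -0.44 and -0.75. Macf1 has 31402 bp of exons, Cd22, Siglecg and Arhgap45 are near the median, and Gm42418 is well below it.

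**Figure D4:**
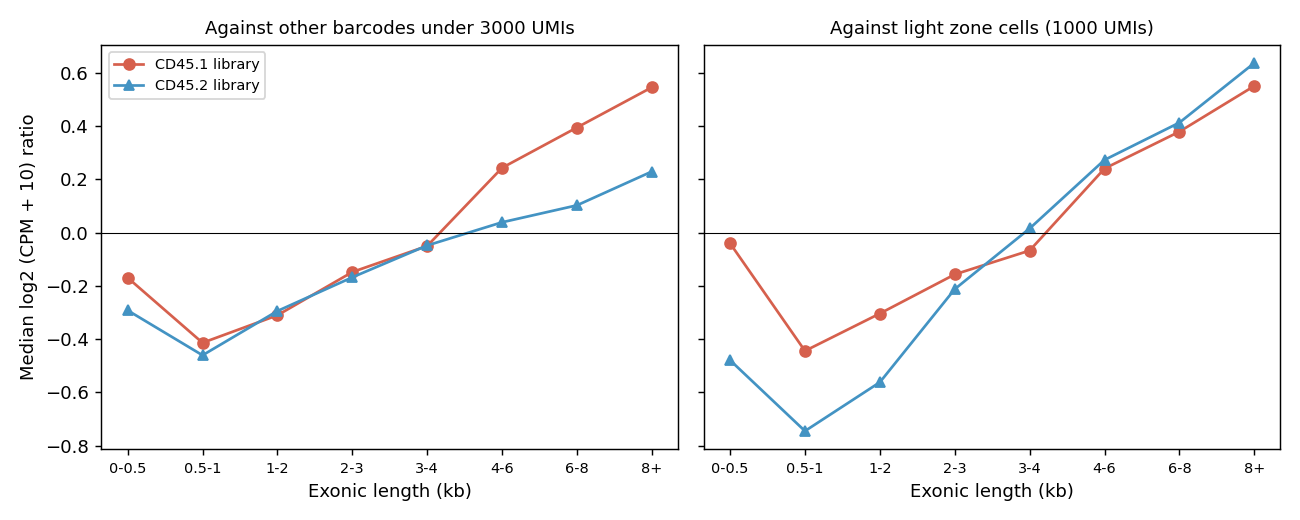
Median log2 ratio of CPM plus 10 (y axis) by exonic length in kb (x axis), members over other low barcodes (left) and over LZ cells at 1000 UMIs (right), for each library. From 0.5 kb upward the median rose with each bin in both libraries, and the shortest bin holds 17 genes.

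Hashtag counts reached few of the CD45.2 members. Of them 187 (22.2%) had an entry in the hashtag matrix, against 92 of 107 (86.0%) in the CD45.1 library. The other low barcodes stood at 15.7% and 81.1%, and all kept barcodes at 61.5% and 93.5%, in the CD45.2 and CD45.1 libraries. Demultiplexing made 142 CD45.2 members singlets and 45 doublets, and 81 and 11 in the CD45.1 library. Of all kept barcodes with hashtag counts, 7951 of 14439 were called doublets in the CD45.2 library and 1548 of 4753 in the CD45.1 library, so that leaving doublets out removes a larger part of all cells than of members. The shares per mouse therefore leave out most CD45.2 members. Over all kept barcodes, hashtagged or not, members were 2.11% of the CD45.1 library (107 of 5083, exact binomial 95% interval 1.73% to 2.54%) and 3.58% of the CD45.2 library (841 of 23467, 3.35% to 3.83%), with 1 library each and no test.

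The first question was how large a share of a mouse's cells the members were. Among CD45.1+ singlets they were 8 of 395, 5 of 519 and 16 of 947 cells in the mice labelled wt/wt (2.03%, 0.963% and 1.69%) and 19 of 496, 10 of 339 and 23 of 508 in the mice labelled cpm/cpm (3.83%, 2.95% and 4.53%). The groups did not overlap. Their means were 1.56% ± 0.543 and 3.77% ± 0.791 (SD, n = 3 each), a difference of 2.21 percentage points (exact permutation test, two-sided, p = 0.1, adjusted over 3 comparisons 0.3), and 0.1 is the smallest p that 3 against 3 mice can give. With cells called where the highest hashtag was at least 3 times the next, the difference was 1.16 points (1.90%, 1.12% and 1.52% against 2.91%, 2.39% and 2.72%). CD45.1+ cells are Dock8 wt/wt in every mouse. Under another hashtag normalization, over each cell, the mice labelled cpm/cpm kept only 26, 16 and 57 CD45.1+ singlets, of which 1, 2 and 3 were members.

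Among CD45.2+ singlets, members were 40 of 2007, 80 of 2607 and 20 of 1672 cells in the mice labelled wt/wt (1.99%, 3.07% and 1.20%) and 0 of 57, 1 of 44 and 1 of 101 in those labelled cpm/cpm. The 0 of 57 allows a share of up to 5.26% (3 counts of the total). The group means, 2.09% ± 0.940 and 1.09% ± 1.14 (SD, n = 3 each), overlapped and differed by -0.998 percentage points (exact permutation test, two-sided, p = 0.4, adjusted 0.4). These shares hold hashtagged members only. CD45.2 members without hashtag counts held Y-linked genes at 168 CPM and those with them at 37.0 CPM. Among CD45.2+ singlets the Y-linked Ddx3y was higher in the mice labelled cpm/cpm, as given above. Whether hashtags were lost evenly across labels was not tested, so the direction over all CD45.2 members is not known. Over each cell, the hashtag normalization gave these mice more CD45.2+ singlets, with 3 of 302, 3 of 145 and 5 of 468 members (0.993%, 2.07% and 1.07%) against 1.67%, 1.65% and 0.841% in mice labelled wt/wt, a difference of -0.0094 points. The 3-fold hashtag rule gave 2 of 229, 3 of 160 and 7 of 481 and a difference of -0.519 points. Within a mouse, the CD45.2 share minus the CD45.1 share was -0.0323, 2.11 and -0.493 percentage points in the mice labelled wt/wt and -3.83, -0.677 and -3.54 in those labelled cpm/cpm, -1.08 on average (exact sign-flip test over 6 mice, two-sided, p = 0.281, adjusted 0.4). That average pools groups that ran apart: the difference between sorts differed by -3.21 points between the mice labelled cpm/cpm and wt/wt (exact permutation test, two-sided, p = 0.1, the smallest that 3 against 3 can give). By the 3-fold hashtag rule, the shares of the sorts lay closer together in each mouse labelled cpm/cpm. The CD45.2 and CD45.1 shares were there 0.873% and 2.91%, 1.88% and 2.39%, and 1.46% and 2.72%. In the mice labelled wt/wt they were 1.88% and 1.90%, 2.87% and 1.12%, and 1.01% and 1.52%. As a share of singlets under 3000 UMIs with low Jchain, members were 14.5% ± 9.11 of CD45.1+ and 68.6% ± 6.12 of CD45.2+ cells where the label was wt/wt, and 20.4% ± 1.46 and 27.8% ± 25.5 where it was cpm/cpm (SD, n = 3 each), the last resting on 1, 2 and 3 cells.

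**Figure D5:**
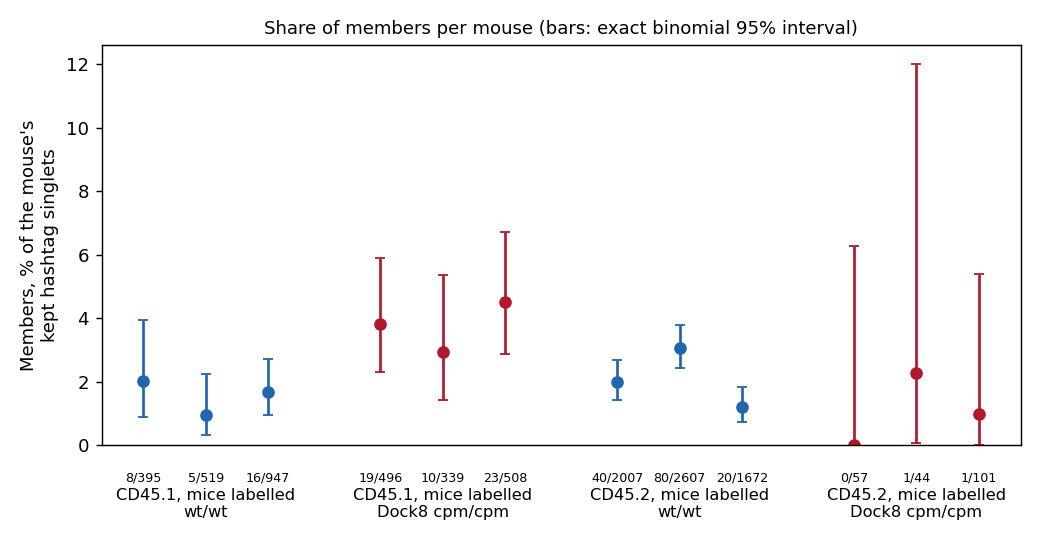
Members as a percentage of a mouse's kept hashtag singlets (y axis) for the 3 mice of each label and sort (x axis), with the exact binomial 95% interval and the number of members and cells below each point. The 3 CD45.1 values of mice labelled cpm/cpm (2.95% to 4.53%) lie above those of mice labelled wt/wt (0.963% to 2.03%), and the CD45.2 values of mice labelled cpm/cpm rest on 44 to 101 cells.

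The second question was whether members of the same sort differed by recipient group. Counts were summed per mouse over members and tested with edgeR. For the CD45.1 members, 0 of 340 genes (0.0%) were called between recipients at an adjusted p under 0.05, with 10 genes at an unadjusted p under 0.05. DESeq2 also called 0, with 5 genes under 0.05 before adjustment. Top1, DNA topoisomerase I, had the lowest p, at 236, 423 and 219.7 CPM in mice labelled wt/wt and 709, 846 and 554 CPM in mice labelled cpm/cpm, a log2 change of 1.35 ± 0.420 (SE, edgeR adjusted p = 0.841). Basp1, an LZ gene for a membrane-associated phosphoprotein, was at 236, 169 and 251 against 538.5, 423 and 672.5 CPM (log2 1.32 ± 0.438, edgeR adjusted p = 0.841). The 2 groups overlapped for neither gene. Malat1 was at 16220, 28930 and 14000 against 35460, 24580 and 22370 CPM, overlapping between groups, and it became the only call when mouse 2 labelled wt/wt was left out (log2 0.89 ± 0.183, edgeR adjusted p = 6.8e-04). Dock8 cpm/cpm and wt/wt members could not be compared in the CD45.2 library, because 0, 1 and 1 members came from the mice labelled cpm/cpm.

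The third comparison set CD45.2 against CD45.1 members in the 3 mice labelled wt/wt, where both are Dock8 wt/wt. Of 458 genes, 144 (31.4%) were called by edgeR at an adjusted p under 0.05, 79 higher (17.2%) and 65 lower (14.2%) in CD45.2 members. The CD45.1 sums held 8, 5 and 16 members and the CD45.2 sums 40, 80 and 20. The calls include Arhgap45 and Jchain, which the rule used. Leaving out mouse 2 reduced the 144 calls to 12, all of them among the 144 and all higher, and leaving out mouse 1 to 54 higher and 20 lower. With no filter on low counts there were 61 higher and 1 lower, and with the mouse as a block 61 higher and 41 lower.

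Of the markers outside the rule, Gm42418 rose, at 4366, 5076 and 4864 CPM in CD45.1 members and 8193, 9752 and 8040 CPM in CD45.2 members (log2 1.04 ± 0.208, edgeR adjusted p = 3.8e-04), and it kept its call without each mouse in turn. Siglecg was at 531, 1015 and 722 against 722, 836 and 482 CPM (0.18 ± 0.287, edgeR adjusted p = 0.652), and the groups overlapped. The 3 genes of the rule are given as a description. Arhgap45 was at 354, 169 and 408 against 1046, 928 and 1235 CPM, without overlap. Macf1 was at 1121, 1523 and 910 against 1076, 1275 and 632 CPM and Cd22 at 885, 761 and 1506 against 1503, 1530 and 1325 CPM, both with overlap. In LZ cells of the same mice Gm42418 was at 1657, 1934 and 2028 against 1786, 2070 and 1823 CPM, and whether the members' difference departs from that of LZ cells was not tested.

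The 5 largest changes were all higher in CD45.2 members. Gm10800, a model in a satellite-like repeat, was at 0.0, 84.6 and 62.8 against 722, 538 and 482 CPM (log2 3.67 ± 0.558, edgeR adjusted p = 2.6e-05). Cmah was at 177, 0.0 and 125.5 against 737, 574 and 422 CPM (2.52 ± 0.466, edgeR adjusted p = 2.1e-04). Fgd2 was at 59.0, 0.0 and 157 against 501, 489 and 331 CPM (2.38 ± 0.511, edgeR adjusted p = 9.1e-04). Gimap3, a small GTPase of lymphocyte survival, was higher by 2.30 ± 0.458 and the MHC class Ib gene H2-Q7, which has near-identical neighbours, by 2.24 ± 0.438. No group overlapped for these 5, and Gm10800 alone among them was also called without each mouse in turn. In LZ cells of these mice Gm10800 was at 19.8, 6.04 and 11.7 against 173, 240.3 and 184 CPM.

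Among receptor signalling genes, 5 of 10 tested rose (among them Ighd, Ighm, Igkc and Syk) and 0 fell, beside 17.2% higher over all genes, and 3 of the 10 were called without mouse 2. Syk, the kinase that starts receptor signalling, was at 413, 254 and 220 against 1326, 998.5 and 873 CPM (log2 2.10 ± 0.345, edgeR adjusted p = 8.2e-05). Early or naive-like genes rose in 7 of 9 tested, S1pr1 among them, and 0 were called without mouse 2. S1pr1 was at 295, 0.0 and 188 against 368, 397 and 452 CPM (1.30 ± 0.462, edgeR adjusted p = 0.0303), so that the sorts did not overlap, and it kept its call in 1 of the 3 fits without a mouse. Splicing genes rose in 4 of 14 (Clk1, Ddx5, Luc7l2 and Srsf11) and mitochondrial messenger RNAs in 3 of 12, shares near that of all genes, with 0 and 2 called without mouse 2. Of 3 plasma cell genes tested, Hsp90b1, a chaperone of the endoplasmic reticulum, rose, and it was not called without mouse 2. Jchain, which the rule bounded, was at 649, 508 and 439 against 1916, 1947 and 2590 CPM, beside 436, 506 and 406 against 834, 887 and 762 CPM in LZ cells. LZ genes fell in 2 of 5, Cd83 and Tnfrsf13c, the receptor for the survival factor BAFF, beside 14.2% lower over all genes, and 0 of the 5 were called without mouse 2. The latter was at 649, 846 and 596 against 354, 234 and 181 CPM (-1.16 ± 0.336, edgeR adjusted p = 0.0100). Of 78 ribosomal protein genes tested, 48 fell and 0 rose. Rps20 among them was at 6784, 7868 and 6088 against 2284, 2479 and 3674 CPM (-1.14 ± 0.219, edgeR adjusted p = 3.2e-04), and none of the 48 was called without mouse 2. The CD45.2 members were shallower than the CD45.1 members, as given above, and their part in these calls was not tested.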

How the data were processed

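The deposited mRNA files hold UMI counts per gene and barcode, and the hashtag files UMI counts per hashtag, made by the authors with Cell Ranger 5.0.1 (submitters' processing notes) on the mm10-2020-A transcriptome and analysed by them in Seurat 4.0. Members and gene lists were chosen with earlier results of these data known. Members were found as stated in the report, hashtag doublets included and no doublet caller run. The LZ gate asked for 3000 UMIs or more, at least 20 CP10K of 10 LZ genes, more than of 5 early genes, under 10 CP10K of 7 cycling genes and of 4 T cell genes. The T cell gate asked for 20 CP10K or more of those. Mice came from Seurat 5.3.0 HTODemux on CLR values over each hashtag (quantile 0.99). Class ratios used CPM of summed counts plus 10, for genes of at least 50 CPM, called past 2-fold in both libraries. Counts per mouse (at least 5 members) were tested with edgeR 4.0.16 (quasi-likelihood, TMM, filterByExpr, Benjamini-Hochberg 0.05), with DESeq2 1.42.0 as an alternative, Xist and Y-linked genes counted apart. Exact tests used all permutations. Scripts were tested on simulated data. The named genes were the markers, the study's list, the 10 highest and lowest ratios, the 5 largest called changes and up to 4 abundant genes of each list. Others, among them the lower genes of the last comparison, were chosen after their values were seen. CD45.1 and CD45.2 sums of the same number come from the same animal, and correlations of their deviations were -0.0016, 0.0137 and 0.0182. Replicates are mice within 1 pool and 1 library per sort. Some genes are not reported here.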

Additional observations from a re-analysis of the deposited data

How the results depend on the processing

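Counts of genes past 2-fold moved with the settings. The ratios of members to other low barcodes of Siglecg, Gm42418, Fgd2, Pml and Ccl5, and to LZ cells of Siglecg, Gm42418, Pml, Malat1, S1pr1, Rgs13 and Rps20, kept their sign in both libraries under the alternatives below, whereas Malat1 against the other low barcodes turned within 1 depth bin, as the report gives. The 948 members became 1499 at a line of 10 CP10K, 364 at 40, 465 under 5% mitochondrial counts and 470 with Jchain under 20 CP10K. Against the other low barcodes, the 14 higher and 4 lower genes became 5 and 2 with a pseudocount of 50 CPM and 8 higher without hashtag doublets (added after seeing the data), and the lower genes became 24 with no filter, 1 with a 100 CPM filter, 0 without T cell-gated barcodes and 9 at 2000 to 3000 UMIs (both added after seeing the data). Against LZ cells, the 135 higher and 16 lower became 262 and 40 at 500 UMIs, 215 and 41 with a pseudocount of 1 CPM, 29 and 7 with 50 CPM, 236 and 28 with no filter, 73 higher with a 100 CPM filter and 34 lower with an LZ gate of 40 CP10K. The causes were not tested, apart from the smaller or larger number of genes and barcodes that these settings leave. Between CD45.2 and CD45.1 members, the 144 calls became 92 with DESeq2, 62 with no filter and 12 to 103 without 1 mouse. With the mouse as replicate block there were 102, of which 101 were among the 144, with 61 higher and 41 lower, so that the lower calls moved from 65 by over 1.5 times. Between recipient groups of CD45.1 members the calls were 0 to 1 without 1 mouse, and this test could not be run with CLR over each cell. The CD45.2 members of mice labelled cpm/cpm were too few for a test under any hashtag rule. The difference in share between sorts reversed to 30.7 percentage points of low singlets with low Jchain, 0.524 at 40 CP10K and 0.0989 under 2000 UMIs, and that of CD45.2 cells by label to 0.0630 at 40 CP10K, none of them past the threshold. Without 1 mouse the 3 share differences ran from -1.59 to -0.455 (CD45.2 by label), 1.83 to 2.62 (CD45.1 by recipient) and -1.71 to -0.527 (between sorts). Depth limits single members, with a median of 5 UMIs of the rule genes.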

Other observations

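CD45.2 members with and without hashtag counts were alike in several markers. The 187 with counts had a median of 1705 UMIs and the 654 without had 1077.5. Xist was at 3038 and 2699 CPM, Gm42418 at 8431 and 6689 CPM, Malat1 at 25460 and 21930 CPM, and the rule genes summed to 3708 and 3909 CPM. Y-linked genes summed to 37.0 CPM in members with hashtag counts and 168 CPM in members without, and in LZ cells of the library to 67.7 and 110 CPM. No group was assigned from these values.

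Neat1, the RNA of paraspeckles, was at 293 CPM in CD45.2 members and 164 CPM in the other low barcodes, and at 92.7 and 56.9 CPM in the CD45.1 library. With both classes thinned to 1000 UMIs, Bcl2, the gene of the survival protein that the transgene encodes, was at 309 CPM in CD45.2 members and 203 CPM in LZ cells, and at 58.8 and 16.1 CPM in the CD45.1 library. Ahnak, a very large scaffold protein, was at 216 CPM in CD45.2 members and 27.3 CPM in LZ cells thinned alike, and at 11.8 and 2.14 CPM in the CD45.1 library. The CD45.1 members at that depth are 85 barcodes of 1000 UMIs, so Bcl2 and Ahnak rest on few UMIs there. In the 9 sums per mouse, Ahnak was higher in members in 6 against LZ cells and in 5 against the other low barcodes. Its lowest level in members was 0.0 CPM.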
